A study of Homo sapiens with 12 samples.

Results

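The genes described here are 39 genes of the NF-kB pathway and of inflammatory cytokines, taken by gene symbol from the 27146 genes that appear in any of 3 comparison tables. They were measured in MDA-MB-231 cells, a human line long grown in culture and derived from a breast cancer that lacks hormone receptors and HER2. Cells received DMSO (Ctrl), SAHA, compound 1 or a6 for 48 h, the compounds at 2.5 µM each, and RNA from 3 libraries a group, 12 in all, was sequenced. SAHA (vorinostat) inhibits histone deacetylases, or HDACs. By the labels SAHA and compound 1 have a single target each, whereas a6 has a pair of targets, HDACs and the guanine-rich folded structures called G-quadruplexes (G4s). All groups are 1 cell line in culture, so no other cell type was present by design. Each deposited table compares 1 compound with Ctrl by DESeq2 and gives, per gene, a mean normalized read count, a log2 fold change, its SE (standard error), and p before and after adjustment. Of the 39 members, the SAHA table has rows for 36, that of compound 1 for 38 and that of a6 for 34, and 33 are in all 3.

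NF-kB is a family of dimeric transcription factors built from the subunits encoded by NFKB1, NFKB2, REL, RELA and RELB. In resting cells inhibitor proteins such as IkB-alpha, the product of NFKBIA, hold the dimers in the cytoplasm, and signals from cytokine receptors release them to bind kappa B elements in DNA. Their targets include chemokines, interleukins, colony-stimulating factors and the inhibitors themselves, which closes a feedback loop. MDA-MB-231 is known for NF-kB activity without added cytokine and for secreting interleukins and chemokines.

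Promoter sequences of members are described first, so that the genes can be compared by their letters. Whether a promoter bears on a response was not tested. RefSeq promoter windows of 300 bases on GRCh38.p14, from 250 bases before to 50 after a start site, matched 30 members. The kappa B consensus, a degenerate motif of 10 letters searched on both strands, was present in a window of 16 of these 30 members (53.3%), against 17.1% of 11684 genes of the SAHA table with a window. By window the share was 40.0% of 45 windows of members, against 11.3% of all 35116 windows. Members were listed as genes of the NF-kB pathway, so a higher kappa B share was built into the list and tells nothing about the compounds. A G4 motif, 4 runs of at least 3 G separated by 1 to 7 bases on either strand, was present for 13 of the 30 (43.3%), against 40.8% of those 11684 genes. NFKBIA and BCL3, which fell with SAHA, each hold a kappa B match, while TNFAIP2, the member with the smallest adjusted p, holds none in its window. TNFAIP2 and BCL3 each hold a G4 motif and NFKBIA does not. The windows of IL1A and CSF2, also called with SAHA, hold neither motif and are not printed. No window matched CSF3 and CXCL16, the other two called. A match is a description of letters and not of binding. In the first pair of sequences the capitals mark the kappa B match, in TNFAIP2 the capitals mark the stretch covered by overlapping G4 motif matches, and all read 5′ to 3′ on the strand of the gene.
NFKBIA, chr14:35404700-35404999, minus strand: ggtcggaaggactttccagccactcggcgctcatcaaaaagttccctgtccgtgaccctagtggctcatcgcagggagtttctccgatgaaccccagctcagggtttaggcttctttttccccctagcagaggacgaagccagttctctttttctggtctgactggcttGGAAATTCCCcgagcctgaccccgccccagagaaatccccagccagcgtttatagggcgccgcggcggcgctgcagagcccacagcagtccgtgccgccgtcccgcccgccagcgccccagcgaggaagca
BCL3, chr19:44748458-44748757, plus strand: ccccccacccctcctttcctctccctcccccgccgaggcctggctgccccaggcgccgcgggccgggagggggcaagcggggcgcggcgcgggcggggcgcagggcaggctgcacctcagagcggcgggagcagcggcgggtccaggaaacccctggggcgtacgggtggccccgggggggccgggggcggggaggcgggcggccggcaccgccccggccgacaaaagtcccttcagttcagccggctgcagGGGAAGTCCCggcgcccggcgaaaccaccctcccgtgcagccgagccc
TNFAIP2, chr14:103123211-103123510, plus strand: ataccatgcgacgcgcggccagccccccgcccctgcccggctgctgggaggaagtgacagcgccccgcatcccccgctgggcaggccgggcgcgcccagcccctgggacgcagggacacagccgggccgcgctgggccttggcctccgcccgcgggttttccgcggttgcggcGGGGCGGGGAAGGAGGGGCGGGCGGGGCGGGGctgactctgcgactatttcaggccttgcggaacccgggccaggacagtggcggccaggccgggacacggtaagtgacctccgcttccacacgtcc

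The NFKBIA match begins 81 bases before the start site and the BCL3 match 2 bases after it. CXCL1, CXCL2 and CXCL3, neighbouring chemokine genes on chromosome 4 of similar sequence, all carry the same run GGGAATTTCCC, in which a kappa B match on each strand overlaps the other, and none of them passed the test in any table in which it has a row. Their bases from 100 to 41 before the start site are given next, with this run in capitals. Because these genes resemble each other, how the authors' counting split reads among them is uncertain.
CXCL1, chr4:73869293-73869352, plus strand: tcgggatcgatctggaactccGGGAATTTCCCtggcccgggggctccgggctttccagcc
CXCL2, chr4:74099236-74099295, minus strand: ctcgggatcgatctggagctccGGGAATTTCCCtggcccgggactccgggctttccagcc
CXCL3, chr4:74038730-74038789, minus strand: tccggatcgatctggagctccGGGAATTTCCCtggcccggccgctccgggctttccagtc

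Ctrl libraries entered all 3 comparisons, and group means computed from the tables give the same Ctrl levels after a constant (SD of 0.00131 to 0.00326 on the log2 scale). The comparisons with Ctrl are therefore not independent of each other, and values are set side by side without a test of their likeness. Values per library and depth per library were not analysed here, so the spread between libraries is seen only through the standard errors, and whether groups overlap library by library is unknown. The titles number the libraries as biological replicates without mention of separate cultures, so p-values measure the spread between these libraries, which may be technical. All 6 genes listed as high in this cell line (VIM, CD44, EGFR, KRT18, AXL and CAV1) had rows in each table with 0 of them called. Among immune markers, PTPRC, CD3E, MS4A1 and CD163 had no row in any table, and the summed level of those with a row went from 291 in Ctrl to 444 with SAHA, from 292 to 227 with compound 1 and from 285 to 144 with a6. Of these CD14 rose with SAHA and HLA-DRA fell with a6. Of 3 fibroblast and 3 endothelial markers, LUM and VWF rose with SAHA, from mean normalized counts of 0.378 and 1.41 in Ctrl to 49.3 and 23.0. Both Ctrl levels lie under the lowest mean count of that table, 2.44, so these genes have rows there through their level with SAHA, and neither has a row in the a6 table. ESR1 and PGR, receptors this line lacks, had no row in the SAHA and a6 tables. The part of these markers in the results was not tested.

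In Ctrl, members differed widely in level. Per kilobase of merged exons, the early response gene IER3 was highest, at a mean normalized count of 9719, followed by the adhesion molecule gene ICAM1 at 1112, the macrophage colony-stimulating factor gene CSF1 at 947 and TNIP1, a partner of the A20 deubiquitinase, at 897. The subunit genes NFKB2 and RELA were at 720 and 496 on this scale, NFKBIA at 624 and the interleukin gene IL24 at 399. CCL5, PTGS2, CCL20 and TNF lay at or below 0.912. TNF, CCL5 and CCL20 had a row in the compound 1 table alone, whose lowest mean count was 0.145, against 2.44 in the SAHA table and 9.31 in the a6 table.

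With SAHA the members divided. Of 36 measured, 2 rose (CXCL16 and IL1A) and 5 fell (TNFAIP2, CSF3, BCL3, NFKBIA and CSF2) in the authors' DESeq2 test at an adjusted p under 0.05, a share to be read against 7.55% of all 18534 genes called, 4.53% higher and 3.02% lower. The median log2 fold change of the measured members was -0.35 and 9 of 36 were above 0, against a median of -0.01 and 49.3% above 0 over all genes in the authors' deposited table. Calls toward lower levels depended in part on GC content. Removing the trend of fold change on GC content took lower calls over all genes from 560 to 359, and higher calls from 839 to 832. The median of the members was not recomputed without that trend. At an unadjusted p under 0.05, 3 members were higher and 11 lower, where 18.4% of all genes passed that limit in either direction. The authors' own lists of changed genes, which need an unadjusted p under 0.05 and at least a 2-fold change, hold 8 members for SAHA, against 10.4% of all genes.

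The plot of group levels for the 7 members called with SAHA shows how each stood with the other compounds.

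**Figure D1:**
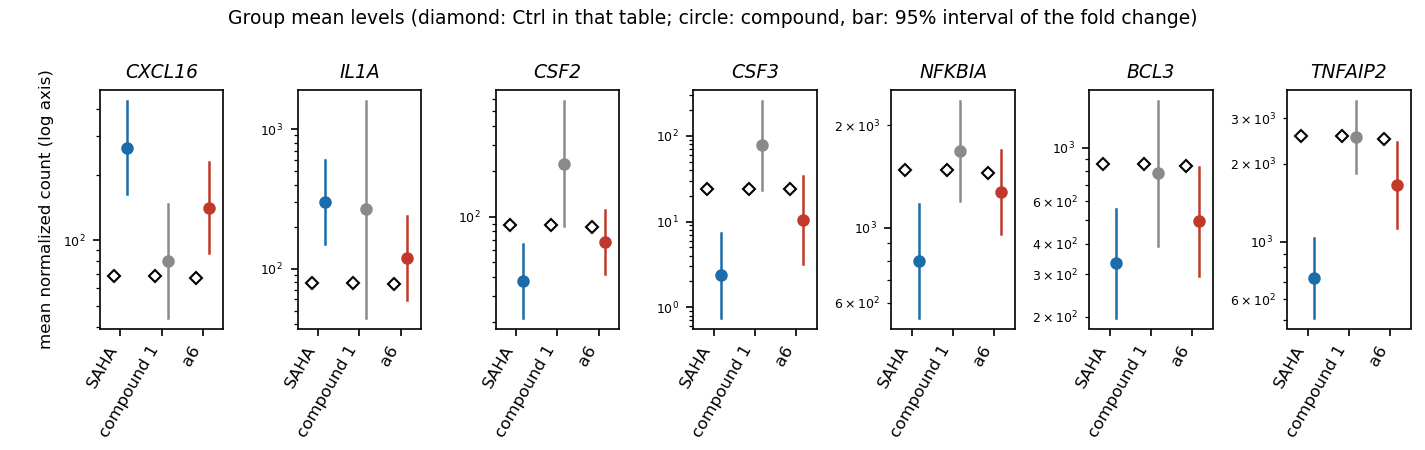
Mean normalized count (log axis) of the 7 members called with SAHA, by table, each panel on its own axis. Open diamonds are Ctrl in that table, circles the compound, and bars the 95% interval of the fold change applied to the Ctrl level. TNFAIP2 stands at 726 with SAHA, 2540 with compound 1 and 1658 with a6, against 2503 to 2558 in Ctrl.

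Among the chemokines, CXCL16, a transmembrane chemokine whose receptor is CXCR6, rose. Its group mean computed from the authors' deposited table went from 68.5 in Ctrl to 266 with SAHA, 3.88-fold higher. In bulk RNA, a change in the number of cells that express a gene and a change in RNA per cell cannot be told apart. By the authors' deposited table its log2 fold change was 1.96 (SE 0.36, DESeq2 adjusted p 7.98e-06). CXCL16 lies on chromosome 17, 4733526 to 4739922, in GENCODE 29 on GRCh38, and like the other genes given a position here it is protein-coding. The neutrophil-attracting chemokines CXCL1, CXCL2, CXCL3 and CXCL8 did not pass: their log2 fold changes with SAHA lay between -0.51 for CXCL2 and 0.37 for CXCL8 in the authors' deposited table. CCL2, a monocyte chemoattractant, was at 6.02 in Ctrl and 2.69 with SAHA and did not pass either.

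The interleukins and growth factors moved in both directions. IL1A, the alarmin interleukin 1 alpha at chromosome 2, 112773915 to 112784590, was at a mean level of 79.0 in Ctrl and 299 with SAHA, and rose (log2 fold change 1.92, SE 0.51, adjusted p 0.00522 by the authors' deposited table). Its neighbour in function IL1B was at 264 in Ctrl and 260 with SAHA. The interval of the IL1B log2 fold change computed from the authors' deposited table ran from -1.04 to 1.00, so changes of up to 2-fold either way are not told apart from none.

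Of the 3 colony-stimulating factors, 2 fell, against 3.02% of all genes called lower. CSF3, the granulocyte factor G-CSF at chromosome 17, 40015361 to 40017813, fell from a mean level of 24.2 to 2.37. Its level with SAHA lies under the lowest mean count of the SAHA table, 2.44, so the size of the fall rests on a value near the floor. Its log2 fold change by the authors' deposited table was -3.35 (SE 0.84, adjusted p 0.00237), and its interval is wide, with -1.71 as the end nearest to 0. CSF2, the granulocyte-macrophage factor GM-CSF at chromosome 5, 132073790 to 132076170, fell from 87.8 to 37.6 (log2 fold change -1.22, SE 0.41 and adjusted p 0.0414 by the authors' deposited table). CSF1 was at 5147 in Ctrl and 2720 with SAHA, a log2 fold change of -0.92 with an adjusted p of 0.0573 by the authors' deposited table, just outside the threshold. IL6, a cytokine that signals through gp130, stood at 479 in Ctrl and 104 with SAHA, yet its standard error of 0.86 was wide and its adjusted p in the authors' deposited table was 0.104. IL11 and LIF, which use the same signal transducer, were at -0.76 and -0.50 by the authors' deposited table, and neither passed. IL24, a cytokine of the interleukin 10 family, was at 794 and 1695, and its log2 fold change of 1.09 had an interval from -0.57 to 2.76. IL32 was at -0.39 in the authors' deposited table.

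All 5 NF-kB subunit genes lay below 0 with SAHA, where 49.3% of all genes lay above 0, and 0 of 5 passed. RELB, the partner of p52 in the alternative pathway, was at -0.86 with a standard error of 0.38, and NFKB1, which encodes p105 and p50, at -0.71 with 0.29 by the authors' deposited table. Both had an unadjusted p under 0.05, 0.0251 and 0.0144, and adjusted p of 0.179 and 0.126 (DESeq2). RELA, which encodes the transactivating subunit p65, was at -0.24 with 0.27, NFKB2 at -0.34 with 0.34 and REL at -0.38 with 0.62 by the authors' deposited table. The intervals of RELA, NFKB2 and REL include 0, so their directions are not known.

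Of the 7 inhibitor and feedback genes, 2 fell, where 3.02% of all genes did. BCL3, a nuclear IkB protein that binds p50 and p52, is at chromosome 19, 44747705 to 44760044, and fell from 859 to 332 (log2 fold change -1.37, SE 0.38 and adjusted p 0.00803 by the authors' deposited table). NFKBIA, at chromosome 14, 35401511 to 35404749, fell from 1483 to 799 (log2 fold change -0.89, SE 0.28 and adjusted p 0.0279 by the authors' deposited table). With the trend of fold change on GC content removed, BCL3 stood at -1.06 (adjusted p = 0.0690) and NFKBIA at -0.78 (adjusted p = 0.0759), so both calls ended while most of each change stayed. The other IkB genes NFKBIB and NFKBIE were at 0.20 and 0.28 in the authors' deposited table, the A20 gene TNFAIP3 at 0.22 and TNIP1 at -0.20. NFKBIZ, a further nuclear IkB protein, was at -0.75 with an adjusted p of 0.181 by the authors' deposited table.

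Among effector and survival genes TNFAIP2, a gene induced by tumour necrosis factor, had the smallest adjusted p of all members. At chromosome 14, 103123442 to 103137439, it fell from a mean level of 2558 in Ctrl to 726 with SAHA, 3.52-fold lower. By the authors' deposited table its log2 fold change was -1.82 (SE 0.26, adjusted p 1.39e-09). ICAM1, BIRC2 and BIRC3 (inhibitors of apoptosis bound to TNF receptor complexes), TRAF1, IER3 and SOD2, the mitochondrial superoxide dismutase, lay between -0.66 and -0.19 in the authors' deposited table and none of these 6 passed. PTGS2, the inducible cyclooxygenase COX-2, was at 1.76 in Ctrl and 13.2 with SAHA (log2 fold change 2.90, SE 1.02 and adjusted p 0.0551 by the authors' deposited table). The Ctrl level of PTGS2 lies under the lowest mean count of the SAHA table, 2.44, so it has a row there through its level with SAHA.

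**Figure D2:**
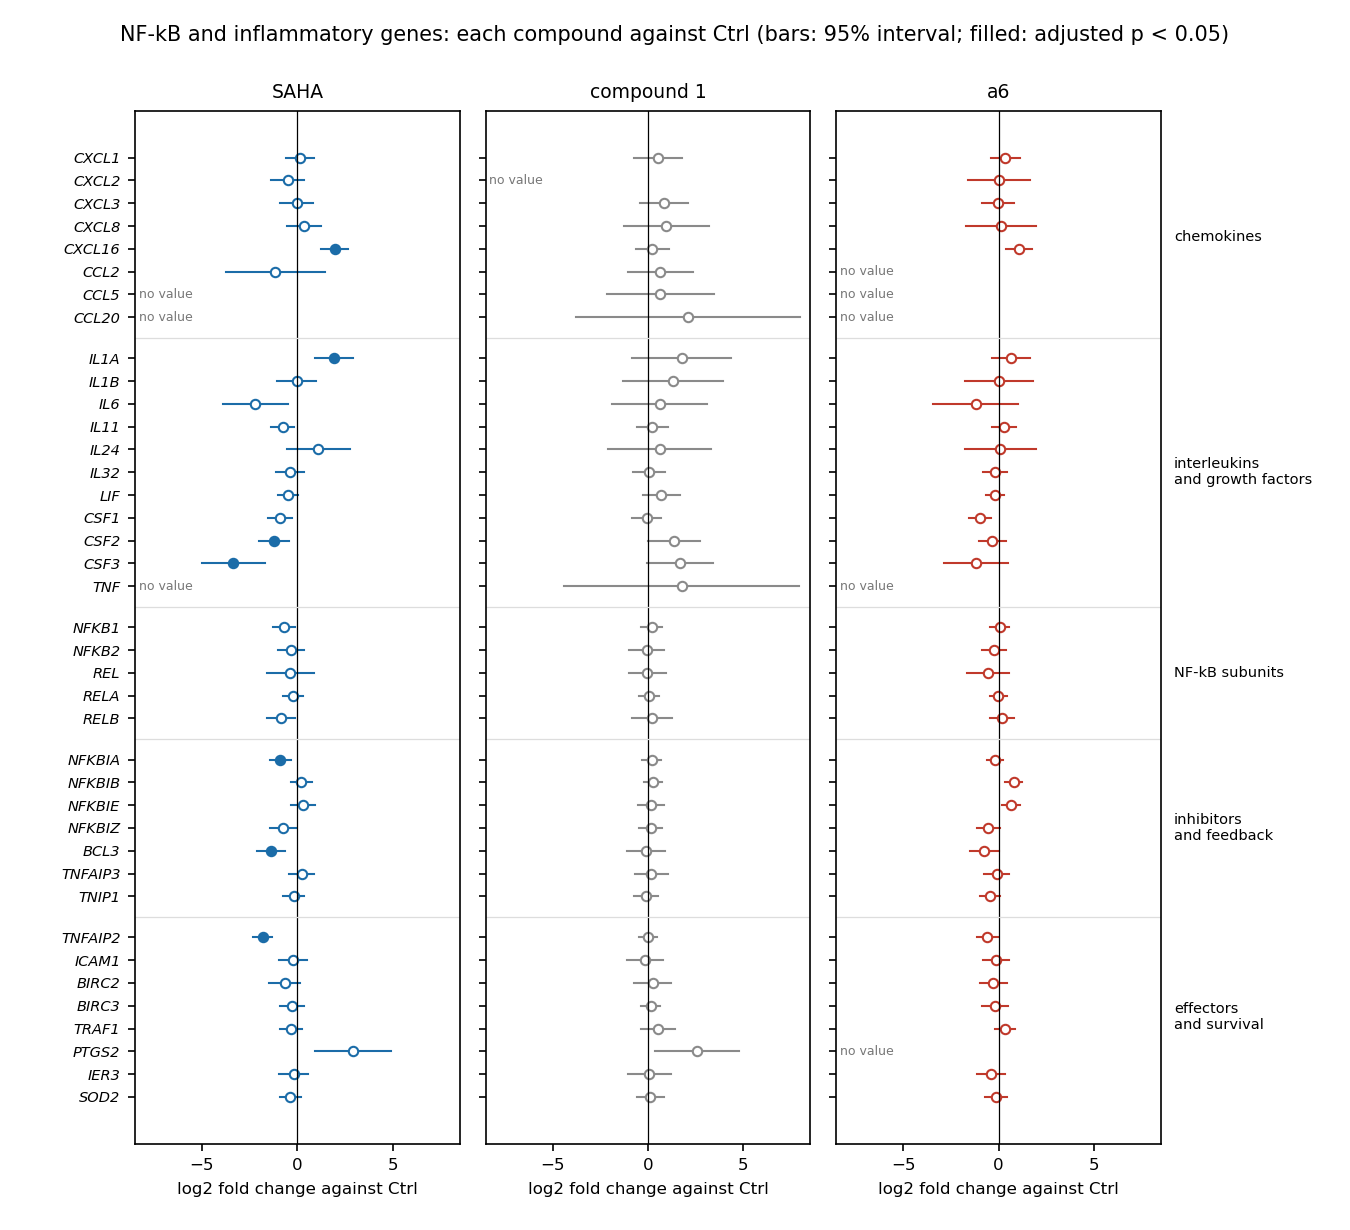
Log2 fold change against Ctrl of the 39 members by role, 1 panel a compound. Circles are the deposited fold changes, bars their 95% intervals, and filled circles an adjusted p under 0.05. Filled circles appear with SAHA alone: CXCL16 and IL1A to the right of 0 and CSF2, CSF3, NFKBIA, BCL3 and TNFAIP2 to the left.

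With compound 1 no member passed: 0 of 38 in the authors' DESeq2 test, where 0% of all 27126 genes passed. At an unadjusted p under 0.05, 1 member was higher (PTGS2) and 0 were lower, against 0.199% of all genes, and PTGS2 is also the 1 member in the authors' lists for compound 1, against 0.159% of all genes. A calibrated test with no gene changed would put a share of about 0.05 under that limit, so p-values ran high here. The lack of a call is thus not evidence that a member was unchanged. Of the 38 members 31 had a log2 fold change above 0, with a median of 0.23, against 51.4% above 0 and a median of 0.01 over all genes in the authors' deposited table. By role the medians were 0.64 over 7 chemokines, 0.69 over 11 interleukins and growth factors, 0.06 for the subunits, 0.15 for the inhibitors and 0.13 for the effectors in the authors' deposited table. The first of these is the value of CCL5, at a mean count of 1.77 and with a standard error of 1.43, and CCL20 and TNF had mean counts of 0.973 and 0.809 and standard errors of 3.00 and 3.14. Without members whose mean count was under 10, a limit applied here after seeing the data, the medians were 0.68 for 4 chemokines and 0.65 for 10 interleukins and growth factors. Mitochondrially encoded genes, which stand for RNA quality here, had a median of -0.23 with 3 of 30 above 0 in the same comparison. Their part in the result was not tested.

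The 5 members with the largest statistics in that table were PTGS2, CSF2, CSF3, LIF and IL1A. PTGS2 was at 1.77 in Ctrl and 10.5 with compound 1, a log2 fold change of 2.57 with a standard error of 1.11 (unadjusted p = 0.0210, adjusted p = 1.00) in the authors' deposited table. CSF2 went from 87.7 to 225 and CSF3 from 24.2 to 77.4, on the other side of Ctrl from their levels with SAHA. Their log2 fold changes by the authors' deposited table were 1.36 with 0.70 and 1.68 with 0.88, and their intervals, -0.02 to 2.73 and -0.05 to 3.40, include 0. LIF, a cytokine of the interleukin 6 family, went from 856 to 1378, at 0.69 with 0.49 by the authors' deposited table, and IL1A from 78.8 to 266. IL1A thus had a log2 fold change of 1.76 with compound 1, close to 1.92 with SAHA, but with a standard error of 1.32 against 0.51 in the authors' deposited table. TNFAIP2 was at 2554 in Ctrl and 2540 with compound 1, a log2 fold change of -0.01 with an interval from -0.47 to 0.46.

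With a6, 0 of 34 members passed in the authors' DESeq2 test, where 0.583% of all 15255 genes passed. PTGS2, CCL2, CCL5, CCL20 and TNF had no row with a6, where the lowest mean count was 9.31, so these were not tested. Members had a median of -0.13 with 13 of 34 above 0, against -0.03 and 45.9% over all genes in the authors' deposited table. At an unadjusted p under 0.05, 3 were higher (CXCL16, NFKBIB and NFKBIE) and 3 lower (CSF1, TNFAIP2 and BCL3), against 7.41% of all genes. The authors' lists for a6 hold 1 member, CXCL16, against 2.61% of all genes.

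The member with the smallest adjusted p with a6 was NFKBIB, which encodes IkB-beta. It went from 535 in Ctrl to 924 with a6 (log2 fold change 0.79, SE 0.23 and adjusted p 0.0706 by the authors' deposited table). Centring the fold changes on their median put NFKBIB at 0.82 (adjusted p = 0.0478), and removing the GC trend put it at 0.83 (adjusted p = 0.0445), so this call depends on the scaling. NFKBIE, which encodes IkB-epsilon, went from 1499 to 2363 (log2 fold change 0.66, SE 0.24 and adjusted p 0.262 by the authors' deposited table). NFKBIA, the third inhibitor of this kind, was at -0.19 with 0.21 by the authors' deposited table. Its interval ran from -0.60 to 0.22, so its direction with a6 is not known.

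CSF1 was at 5024 in Ctrl and 2521 with a6 (log2 fold change -0.99, SE 0.30 and adjusted p 0.0952 by the authors' deposited table), next to -0.92 with SAHA and -0.06 with compound 1. CXCL16 went from 66.9 to 141 (log2 fold change 1.07, SE 0.35 and adjusted p 0.183 by the authors' deposited table). TNFAIP2 was at 2503 in Ctrl and 1658 with a6 (log2 fold change -0.59, SE 0.28 and adjusted p 0.608 by the authors' deposited table). BCL3 was at 838 and 496 (log2 fold change -0.76, SE 0.38 and adjusted p 0.666 by the authors' deposited table). IL1A, CSF2 and CSF3 were at 0.63, -0.33 and -1.18 with a6 in the authors' deposited table. Over the 33 members with a row in every table the median log2 fold change was -0.34 with SAHA, 0.19 with compound 1 and -0.13 with a6, with 8, 26 and 12 above 0.

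The compounds were compared with each other in 3 pairs at the same dose and time, as differences of deposited log2 fold changes with their summed error. Each was tested by z, two-sided, with p adjusted (Benjamini-Hochberg) over all genes of the pair. Between SAHA and compound 1, 2 of 35 members differed, against 1.06% of all genes: TNFAIP2 by -1.81 with a standard error of 0.35 (interval -2.50 to -1.12, adjusted p = 0.000219) and CSF3 by -5.03 with 1.22 (interval -7.42 to -2.65, adjusted p = 0.00834). Both were lower with SAHA, where the CSF3 level of 2.37 is near the floor of the counts. At an unadjusted p under 0.05, 7 members differed, against 7.26% of all genes, among them CXCL16 by 1.73 with an interval from 0.60 to 2.85 and CSF2 by -2.58 with an interval from -4.18 to -0.99. Their adjusted p were 0.151 and 0.105. With an error correlation of 0.5 allowed for the shared Ctrl libraries, 6 members differed: TNFAIP2, CSF3, CSF2, NFKBIA and NFKB1 lower and CXCL16 higher with SAHA, where 5.33% of all genes passed. The 0.5 was set and not estimated, so the calls it adds depend on that choice.

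Between a6 and SAHA, 0 of 34 members passed this z test, against 0.256% of all genes. At an unadjusted p under 0.05, 5 differed, against 5.56% of all genes, each higher with a6: TNFAIP2, IL11, RELB, NFKB1 and NFKBIA, named after their values were seen. TNFAIP2 differed by 1.22 with a standard error of 0.39, an interval from 0.47 to 1.98 and an adjusted p of 0.195. IL11 differed by 1.06 with 0.45 and RELB by 1.03 with 0.50. With the error correlation of 0.5, TNFAIP2 and IL11 passed, where 3.54% of all genes did. CXCL16 and CSF1, which lay on the same side of Ctrl with both compounds, differed by -0.88 (interval -1.88 to 0.11) and by -0.07 (interval -0.94 to 0.79), so differences within these limits are not told apart.

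Between a6 and compound 1, 0 of 33 members passed the z test, against 0.0328% of all genes. At an unadjusted p under 0.05, 2 differed, CSF3 by -2.86 and CSF2 by -1.69, against 1.46% of all genes, with intervals from -5.28 to -0.44 and from -3.24 to -0.14 (adjusted p = 1.00 for each). Between a6 and SAHA the adjusted p was 0.970 for CSF3 and 1.00 for CSF2, and against Ctrl with a6 it was 0.888 and 0.964 by the authors' deposited table, so the levels of these factors with a6 are not placed apart from those in Ctrl or with the other compounds.

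**Figure D3:**
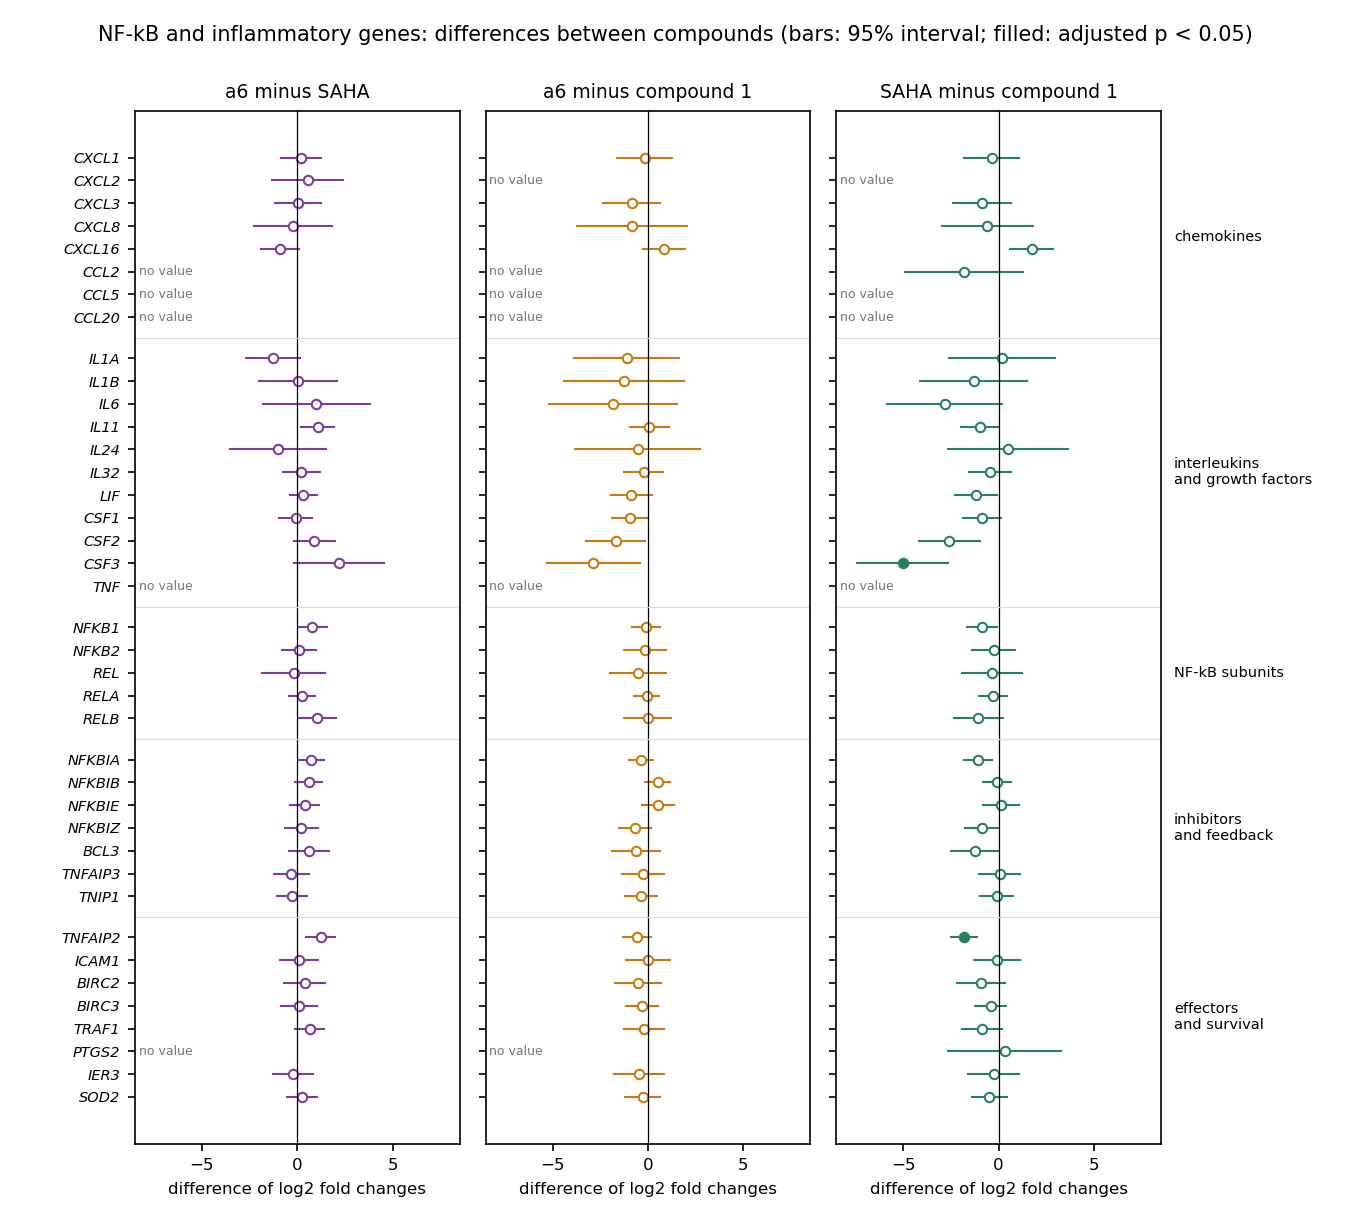
Differences of log2 fold changes between compounds for the 39 members by role, 1 panel a pair. Circles are the differences, bars 95% intervals, and filled circles an adjusted p under 0.05. Filled circles mark TNFAIP2 and CSF3 between SAHA and compound 1, whose bars run from -2.50 to -1.12 and from -7.42 to -2.65.

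The width of these intervals was itself uneven across the members. For each member the standard error was set beside the median standard error of the 500 genes nearest in mean count. With compound 1, 10 of 38 members had a standard error more than 2 times that median (IL1A, IL1B, IL6, IL24, CXCL1, CXCL8, CSF2, CSF3, RELB and IER3), against 0.468% of all genes by a running median along mean count. Among genes with a mean count of 50 or more, which leaves out rows near 0, these are 10 of 32 members against 1.01% of genes. With a6, 5 of 34 did (IL1B, IL6, IL24, CXCL2 and CXCL8), against 0.256%, and with SAHA, 2 of 36 did (IL6 and IL24), against 0.156%. From a mean count of 50 these shares of all genes were 0.304% with a6 and 0.157% with SAHA. Members made up 7.87% of the 127 genes over this limit in the compound 1 table and 12.8% of the 39 in the a6 table.

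IL24 had the highest ratio in the compound 1 table, with a standard error of 1.37, 5.36 times that of genes of like count. For CXCL8, which encodes interleukin 8, the standard error was 0.46 with SAHA, 1.13 with compound 1 and 0.94 with a6, or 1.58, 4.48 and 3.89 times that of like genes. For IL1B it was 0.52, 1.33 and 0.90 in the authors' deposited tables. With compound 1 the standard error of IL1B, 1.33, stood beside 0.24 for TNFAIP2. A standard deviation between libraries is not derived from these, as that would need groups of equal spread. NFKBIA, RELA and BIRC3 had standard errors of 0.25, 0.26 and 0.25 there, so the wide spread in IL1A, IL1B, IL6, IL24 and CXCL8 was not shared by all members. IL11 and IL32, also secreted, were at 0.41 and 0.43. The Ctrl libraries are the same in all 3 tables. IL1A, IL1B and CXCL8 had standard errors of 0.51, 0.52 and 0.46 with SAHA. With compound 1 these were 1.32, 1.33 and 1.13, and with a6 0.51, 0.90 and 0.94. The wider error thus appeared with compound 1 alone for IL1A, and with both compound 1 and a6 for IL1B and CXCL8. Which libraries it came from was not tested. IL6 and IL24 were over the limit in every table, so for them the group is not told apart.

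**Figure D4:**
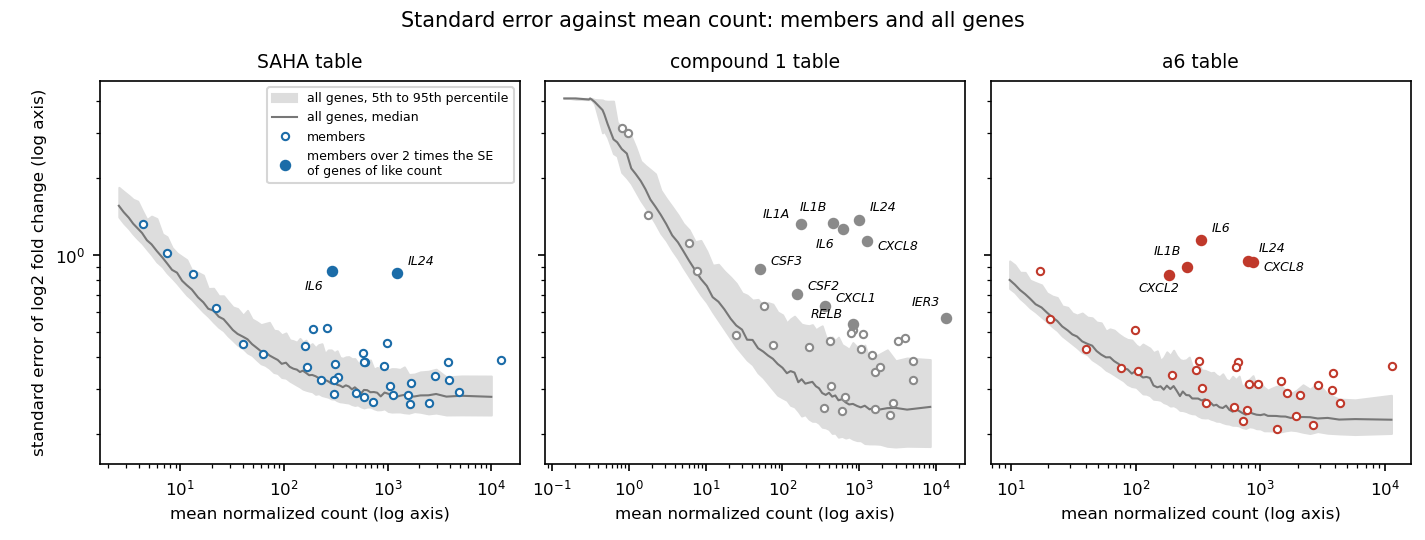
Standard error of the log2 fold change against mean normalized count, both on log axes, 1 panel a table. The grey line is the median over all genes and the band runs from their 5th to 95th percentile, open circles are members and filled circles members more than 2 times above genes of like count. In the compound 1 panel 10 members are filled, in the a6 panel 5 and in the SAHA panel 2.

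CXCL2 has no row in the compound 1 table, although its mean levels were 133 to 190 in the other groups. Of 11774 genes whose mean count reached 50 in both other tables, 4 lack a row there. Its standard error in the a6 table, 0.83, was 2.75 times that of genes of like count.

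The other genes of the pathway were followed in a list of 50 receptors, adaptors, kinases and signal regulators that holds none of the members. With SAHA, 1 of 50 rose and 2 fell in the authors' DESeq2 test, against 7.55% of all genes, and the list's median log2 fold change was 0.07. IL1RN, the secreted antagonist of the interleukin 1 receptor, rose from 41.1 to 124 (log2 fold change 1.59, SE 0.39 and adjusted p 0.00181 by the authors' deposited table). IRAK1 and IRAK2, kinases that carry the signal from interleukin 1 and Toll-like receptors, fell by 1.02 with 0.29 and by 1.14 with 0.35 by the authors' deposited table (adjusted p = 0.00848 and 0.0221). With the GC trend removed IRAK1 stood at -0.75 (adjusted p = 0.0934), which ends its call. Of these 50 genes 0 passed with compound 1 and 0 of 48 with a6 (DESeq2), against 0% and 0.583% of all genes. Before adjustment, 0 of 50 and 3 of 48 had a p under 0.05, against 0.199% and 7.41% of all genes.

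The authors' deposited G4-related lists are not subsets of their lists of changed genes: the list for genes lower with a6 names 326 genes, of which 118 are among the 248 lower genes of the authors' rule. For SAHA the G4-related lists name 827 of the 1936 changed genes (42.7%) and 4 of the 8 changed members, a share near that of all changed genes. CSF3 is listed with 15 G4s, TNFAIP2 with 3 and BCL3 with 1 among the genes lower with SAHA, where the median of the list is 3. CXCL16 is listed with 2 among the genes higher with SAHA and again among those higher with a6, where the medians are 2. The sources used here do not say where in or near a gene these G4s lie.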

How the data were processed

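Total RNA of 12 libraries was sequenced, 3 in each of 4 groups. The submitters' processing notes list cutadapt, DESeq2 and GRCh38 (hg38). Aligner, counter, versions and use of strand: not given in the sources used here. Per the file headers, the authors' 3 comparison tables hold a signal (mean normalized count), a log2 fold change and its error on the log2 scale, a score (the Wald statistic) and each p-value before and after adjustment. The 6 deposited lists of changed genes repeat these columns, and 6 deposited G4-related lists count G4s per gene. A check on the values found Benjamini-Hochberg adjusted p-values within each table, and 0 mismatches between the lists and a rule of unadjusted p-value under 0.05 with at least 2-fold change. Columns with values per library used: 0, and depth per library is unknown here.

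Each compound was tested against Ctrl by the authors' Wald test at an adjusted p under 0.05. Group levels follow from mean count and fold change if groups are equal in size, and 95% intervals from the normal distribution. The z test between compounds adds squared standard errors, which shared Ctrl libraries make conservative. Levels per kilobase use merged exons of GENCODE 29, in which SOD2 has 2 models, whose exons were merged. GC content of GENCODE 29 transcripts was known for 95.8% of genes in the SAHA table, 94.0% for compound 1 and 96.7% for a6, and its trend was a lowess curve with a share of 0.3. Python 3.11.15, pandas 2.3.3, scipy 1.17.1 and statsmodels 0.14.6 were used. The adjustment of p and the z test between compounds were tried on simulated fold changes. Errors there were drawn independently for each compound, so the shared Ctrl libraries were not simulated. The members and all gene lists were chosen with earlier results of these data known. Full values are given for members with an adjusted p under 0.05 in a table or difference, and for the 5 largest statistics of a table where fewer passed. Other members given values were chosen after these were seen, and pathway genes are named where they passed. Alternatives were an adjusted p under 0.01, a 2-fold limit, the authors' list rule, centring on the median, a mean count of at least 10, removal of the GC trend, an error correlation of 0.5 and adjustment over the 3 pairs together.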

Additional observations from a re-analysis of the deposited data

How the results depend on the processing

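Of 54 recomputed counts of members or pathway genes 48 stayed within 1.5 times the count as reported, and 6 did not. Under the authors' list rule 1 member was called with compound 1 (PTGS2) and 1 with a6 (CXCL16), in place of 0. With a6, 1 member (NFKBIB) was called after centring and 1 after removal of the GC trend. With an error correlation of 0.5, 2 members differed between a6 and SAHA in place of 0, and 6 between SAHA and compound 1 in place of 2. Members called with SAHA numbered from 5 to 8 over the alternatives. Of 245 recomputed values of single genes 229 kept direction and side of the threshold, 8 lost a call, 8 gained one and 0 reversed. Over all genes, an adjusted p under 0.01 took the calls from 1399 to 820 with SAHA, from 89 to 36 with a6, and from 39 to 16, 5 to 3 and 197 to 87 in the differences a6 minus SAHA, a6 minus compound 1 and SAHA minus compound 1. The error correlation of 0.5 took these 3 to 540, 44 and 987, and the authors' list rule gave 43 with compound 1 in place of 0 and 398 with a6. Removal of the GC trend gave 1191 with SAHA, of which 359 were lower in place of 560, and 82 with a6. Leaving out single libraries was not run, since values per library were not analysed here. No paired analysis was possible because the columns used carry no values per library. Standard errors over 1 on the log2 scale limit IL1A, IL1B, IL6, IL24, CXCL8, PTGS2, CCL5, CCL20 and TNF with compound 1. They also limit IL6 with a6, and CCL2 and PTGS2 with SAHA.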
